A study of Mus musculus with 10 samples.

Results

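The aminoacyl-tRNA synthetases and the amino acid genes controlled by the transcription factor ATF4 were examined in RNA-seq of cultured mouse tongue epithelial cells. The members were a list of 36 gene symbols, looked up by exact symbol in the deposited table of 18586 rows. Of these, 35 were present: 5 regulators of the response, 8 enzymes of amino acid synthesis and one-carbon metabolism, 4 amino acid transporters and 18 of the 19 listed synthetases. Mars1 had no row under that symbol. A row named Mars, the older symbol of the methionyl-tRNA synthetase, was present and is given separately.

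The 10 libraries came from primary epithelial cultures of adult mice, isolated 15 days after transgene induction, sorted for the nuclear H2B-GFP reporter and kept in doxycycline. All carried Krt14-CreERT, LSL-rtTA and tetON_H2B-GFP, in which the Krt14 promoter confines the tamoxifen-activated recombinase to basal epithelial cells and doxycycline switches on the tet-responsive genes. The 6 EY libraries carried in addition tetON_E6-E7, the oncogenes of human papillomavirus, and tetON_YAP1S127A, a constitutively active form of the co-activator YAP. The lines were 3 in number (EY3960, EY4028, EY4174) and gave 2 libraries apiece. The 4 N libraries had neither oncogene and all came from the single line N4172, so that genotype and line cannot be told apart. Libraries of a line were separate samples of that line and not separate animals. In EY against N, p-values measure the spread between libraries, including that between the 3 EY lines but not between N lines. Where lines are compared singly, p-values measure only the spread between libraries of the same line and not that between lines. This spread may be technical in part.

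Values were TPM, a transcript abundance divided by transcript length and scaled to a common total in each library, and the sequencing depth is unknown. Between 10852 and 11522 genes reached 1 TPM in a library, and mitochondrially encoded transcripts made up 14.1% to 20.5% of the TPM. All 8 epithelial markers examined were expressed, with summed levels of 5366 to 9776 TPM in EY and 7047 to 7732 TPM in N libraries. Of the fibroblast, endothelial and skeletal muscle markers, 2 of 7, 3 of 4 and 2 of 5 had a row. Those of each type summed to less than 1 TPM in every library. Of the 7 immune markers, 4 had a row, and their sum of 29.8 to 72.6 TPM in EY and 42.3 to 70.2 TPM in N came mostly from Cd68, a lysosomal protein of macrophages that other cells also contain. The melanocyte markers summed to at most 3.44 TPM. An indirect check of the YAP transgene was the row Yap1, at 34.7 to 57.1 TPM in EY and 17.2 to 20.9 TPM in N libraries. The transgene is human YAP1, and how much of it counts towards this mouse row is unknown. Expression of E6-E7 was not examined. The fourth N library stood apart in genes of the unfolded protein response of the endoplasmic reticulum, where it was the highest N library in 16 of 17 genes, so several values that rest on it are also given without it. In bulk samples a lower share of cells that express a gene and less of its RNA per cell cannot be told apart.

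Aminoacyl-tRNA synthetases join each amino acid to its tRNA and so feed the ribosome. When an amino acid is scarce, uncharged tRNA activates the kinase GCN2, which phosphorylates the initiation factor eIF2. General translation then falls while the mRNA of Atf4 is translated better, and ATF4 protein with its C/EBP partners raises transcription of genes for amino acid synthesis, uptake and tRNA charging. The same arm is reached from endoplasmic reticulum stress, heme lack and double-stranded RNA through other eIF2 kinases, and from mTORC1. Because Atf4 is controlled mainly at translation, its mRNA level is not a measure of its protein.

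ATF4 binds as a dimer with C/EBP proteins to a composite element, the C/EBP-ATF response element, whose core was searched here as TGATGNAA on both strands in the 250 bases upstream of each RefSeq start site (build GRCm38.p6). Of the 36 listed genes, 27 had a promoter in that table, and 6 of those, Aars, Asns, Chac1, Gars, Pycr1 and Tars, held a match (22.2%). Among all genes with a RefSeq promoter, 3.91% held one. The palindromic cAMP response element TGACGTCA, which other ATF dimers bind, was in 0 of the 27 genes and in 1.77% of all genes. The 6 stretches are shown because they carry the element that ATF4 is known to bind in genes of this kind. They read 5′ to 3′ on the strand of the gene, with the match in capitals. In Aars, Chac1, Gars and Tars the match is on the opposite strand, so that the capitals show its reverse complement.
Chac1, chr2:119351019-119351086, plus strand, match from position -193: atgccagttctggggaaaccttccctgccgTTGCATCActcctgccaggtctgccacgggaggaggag
Asns, chr6:7693210-7693262, minus strand, match from position -23: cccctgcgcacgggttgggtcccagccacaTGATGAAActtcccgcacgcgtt
Pycr1, chr11:120643814-120643881, minus strand, match from position -103: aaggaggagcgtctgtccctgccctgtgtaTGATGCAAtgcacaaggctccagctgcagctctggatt
Aars, chr8:111033700-111033767, plus strand, match from position -112: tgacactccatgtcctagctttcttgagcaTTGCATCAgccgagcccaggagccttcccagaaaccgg
Gars, chr6:55037941-55038000, plus strand, match from position -30: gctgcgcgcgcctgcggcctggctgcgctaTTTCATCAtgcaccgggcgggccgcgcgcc
Tars, chr15:11399659-11399703, minus strand, match from position -15: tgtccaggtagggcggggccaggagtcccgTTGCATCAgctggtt
A match describes these letters only, and no binding was measured here. The 6 genes did not move together between EY and N. Chac1 was called higher, and Asns had a log2 fold change of -0.30, Pycr1 of -0.16, Aars of 0.27, Gars of 0.10 and Tars of 0.10, none of which passed the test described next.

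The first comparison asked how the EY cultures differed from the N cultures. In EY, the regulators Chac1, Ddit3 and Cebpb rose by 0.64 to 1.13 on the log2 scale, the synthetases Lars, Wars and Hars by 0.37 to 0.43 and the one-carbon enzyme Mthfd2 by 0.36. Psph, of serine synthesis, fell by 0.72. The other 27 members, among them Atf4, Asns and all 4 transporters, did not pass. Differences were tested with limma on log2(TPM + 1) over the 11630 genes that reached 1 TPM in 4 or more libraries, with Benjamini-Hochberg adjustment over all of them, and fold changes are on that scale, which understates the change of genes at a few TPM. All 35 members passed the filter on low values. To be called, a gene had to reach an adjusted p under 0.01 together with a log2 fold change beyond 1 in either direction. Of the 35 members, 1 (2.86%) was called, Chac1, against 3.55% of all genes tested (1.85% called higher and 1.7% called lower in EY). With no limit on the fold change, 8 members (22.9%) passed at an adjusted p under 0.01, against 11.8% of all genes. Cebpb, Chac1, Ddit3, Hars, Lars, Mthfd2 and Wars were the 7 that rose (background 6.84%), and Psph was the 1 that fell (background 5%). In 10 members (28.6%) all 6 EY libraries were above all 4 N libraries (background 11.3%), namely these 7 and Atf4, Trib3 and Yars, and in 1, Psph, all were below (background 9.1%). The median log2 fold change was 0.21 over the 35 members and 0.03 over all genes tested. By role the median was 0.77 for the regulators, -0.07 for the enzymes, 0.18 for the transporters and 0.18 for the synthetases. Without the fourth N library these medians were 0.57, -0.14, 0.21 and 0.20.

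Which members passed depended on how the lines were treated. With line as a random block or with 1 mean per line, 0 of the 35 members passed an adjusted p under 0.01 by limma, and 12 and 6 members respectively were at an unadjusted p under 0.05 (20 without either). The fold changes were the same in these fits, but few genes of any kind passed in them, 2.13% of all genes tested with the random block and 2 genes of 11630 with line means, so that a count of 0 members there is no result about the members. The share of all genes at an unadjusted p under 0.05 is not given, here or below. Such counts are therefore no result about the members or about other genes. Without line EY4028 only 3 of the 8 members still passed, and without line EY3960, 7 of the 8 did and 7 others joined them. Without line EY4174, 7 of the 8 passed, with Wars lost, and Asns joined them as lower in EY. The number called over all genes changed as well. It was 413 with all lines, 366 without EY4028, 433 without EY3960 and 588 without EY4174.

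**Figure D1:**
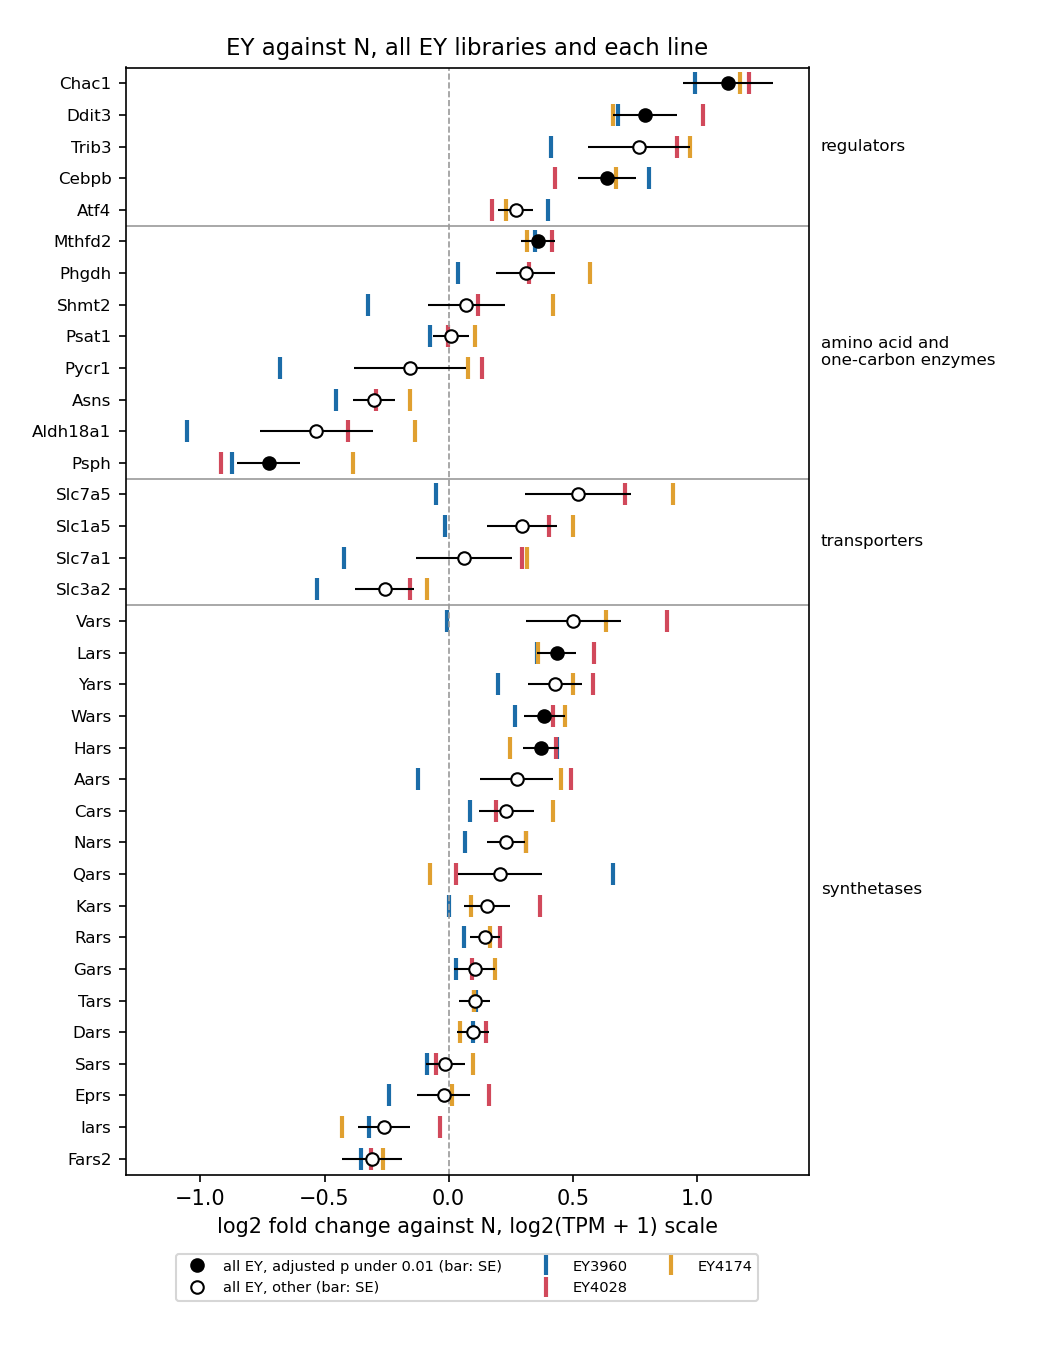
Log2 fold change against N on the log2(TPM + 1) scale (horizontal axis) of the 35 members, grouped by role (vertical axis). Circles give all 6 EY libraries with the SE as a bar, filled at an adjusted p under 0.01, and coloured ticks give each line. Among the regulators every tick lies above 0, and in the transporters the tick of EY3960 lies lowest in each gene.

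The regulators held the largest rises. Chac1 encodes a glutathione-degrading enzyme that is induced downstream of ATF4. Its level was 13.1 and 11.9 TPM in the libraries of EY3960, 14.0 and 15.2 TPM in EY4028, 14.3 and 14.3 TPM in EY4174, and 7.05, 6.31, 7.67 and 3.11 TPM in N. The 6 EY libraries lay close together, whereas the fourth N library was the lowest of all. The log2 fold change was 1.13 ± 0.18 (SE, adjusted p = 0.00110 by limma). Without the fourth N library it was 0.89 (limma adjusted p = 0.000237), under the limit of 1, and 0 of the 35 members were then called, although all 8 remained at an adjusted p under 0.01.

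Ddit3 encodes CHOP, the C/EBP-family factor that follows ATF4 in prolonged stress. It was at 20.7 and 19.9 TPM in EY3960, 27.2 and 24.8 TPM in EY4028, 19.0 and 21.0 TPM in EY4174, and 13.6, 13.7, 12.8 and 9.43 TPM in N. EY4028 was the highest line and the fourth N library again the lowest. The log2 fold change was 0.79 ± 0.13 (SE, adjusted p = 0.00117 by limma), and without the fourth N library it was 0.67 (limma adjusted p = 0.00238). Cebpb, a C/EBP factor that pairs with ATF4, was at 28.7 and 25.1 TPM in EY3960, 20.3 and 20.5 TPM in EY4028, 22.3 and 26.6 TPM in EY4174, and 17.1, 14.6, 15.2 and 12.9 TPM in N. Every EY library was above every N library, with EY4028 nearest to them, and the log2 fold change was 0.64 ± 0.12 (SE, adjusted p = 0.00240 by limma).

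Atf4 itself was among the most abundant members. Its level was 268 and 257 TPM in EY3960, 226 and 223 TPM in EY4028, 225 and 242 TPM in EY4174, and 199, 189, 205 and 200 TPM in N. The groups did not overlap, and EY3960 stood above both other lines, whose libraries overlapped each other. The log2 fold change of 0.27 ± 0.07 (SE) had a limma adjusted p of 0.0158 and did not pass. Trib3, a pseudokinase that feeds back on ATF4, was at 5.75 and 6.51 TPM in EY3960, 8.99 and 9.24 TPM in EY4028, 9.63 and 9.38 TPM in EY4174, and 5.30, 5.50, 4.98 and 2.34 TPM in N. The libraries of EY3960 lay just above the highest N library, and the low value of the fourth N library widened the difference. Trib3 had a log2 fold change of 0.77 ± 0.21 (SE, adjusted p = 0.0181 by limma) and did not pass. Without the fourth N library it was 0.54 (limma adjusted p = 0.0318).

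Among the enzymes, the serine pathway did not move as a group. Phgdh, Psat1 and Psph encode the successive steps from 3-phosphoglycerate to serine. Psph, the last of these, fell. It was at 68.7 and 67.3 TPM in EY3960, 66.4 and 65.4 TPM in EY4028, 95 and 96.5 TPM in EY4174, and 135, 126, 127 and 114 TPM in N. No EY library reached the lowest N library, and EY4174 lay between the other lines and N. The log2 fold change was -0.72 ± 0.13 (SE, adjusted p = 0.00176 by limma).

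Phgdh, the first step, was at 177 and 191 TPM in EY3960, 224 and 225 TPM in EY4028, 255 and 276 TPM in EY4174, and 188, 166, 191 and 171 TPM in N. EY3960 overlapped N and both other lines were above it. Over all EY libraries the log2 fold change was 0.31 ± 0.12 (SE, adjusted p = 0.0755 by limma). Psat1, the transaminase between them and the most abundant member by mean TPM in N, ranged from 231 to 266 TPM in EY and from 217 to 263 TPM in N, and the log2 fold change was 0.01 ± 0.07 (SE, adjusted p = 0.936 by limma).

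Of the mitochondrial one-carbon enzymes, Mthfd2, which oxidises methylene-tetrahydrofolate, rose. It was at 76.2 and 77.3 TPM in EY3960, 81.3 and 79.9 TPM in EY4028, 73.3 and 76.9 TPM in EY4174, and 60.7, 59.3, 66.1 and 54.8 TPM in N. The 3 EY lines were within a narrow band above N, and the log2 fold change was 0.36 ± 0.07 (SE, adjusted p = 0.00287 by limma). Shmt2, which splits serine into glycine and a one-carbon unit, was at 64.8 and 70.4 TPM in EY3960, 91.8 and 92.3 TPM in EY4028, 114 and 114 TPM in EY4174, and 92.0, 79.1, 88.5 and 80.0 TPM in N. EY3960 was below every N library, EY4174 above every one and EY4028 overlapped them, so that the log2 fold change over all lines was 0.07 ± 0.15 (SE, adjusted p = 0.773 by limma).

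Asns, the asparagine synthetase and a widely used reporter of the ATF4 response, was not higher in EY. Its level was 148 and 153 TPM in EY3960, 169 and 168 TPM in EY4028, 183 and 188 TPM in EY4174, and 217, 203, 221 and 187 TPM in N. Of the EY libraries, 5 were below all N libraries, and 1 of EY4174 overlapped the fourth N library. The log2 fold change was -0.30 ± 0.08 (SE, adjusted p = 0.0213 by limma).

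The proline enzymes Aldh18a1 and Pycr1 are the first and last steps from glutamate to proline. Aldh18a1 was at 6.68 and 10.5 TPM in EY3960, 12.4 and 15.3 TPM in EY4028, 17.8 and 15.7 TPM in EY4174, and 17.4, 16.9, 16.5 and 24.1 TPM in N. EY3960 was lowest and the fourth N library highest, and the log2 fold change over all lines was -0.53 ± 0.23 (SE, adjusted p = 0.109 by limma). Without the fourth N library it was -0.41 (limma adjusted p = 0.244). Pycr1 ranged from 2.33 to 6.78 TPM in EY and from 3.96 to 6.57 TPM in N, and the log2 fold change was -0.16 ± 0.22 (SE, adjusted p = 0.652 by limma).

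**Figure D2:**
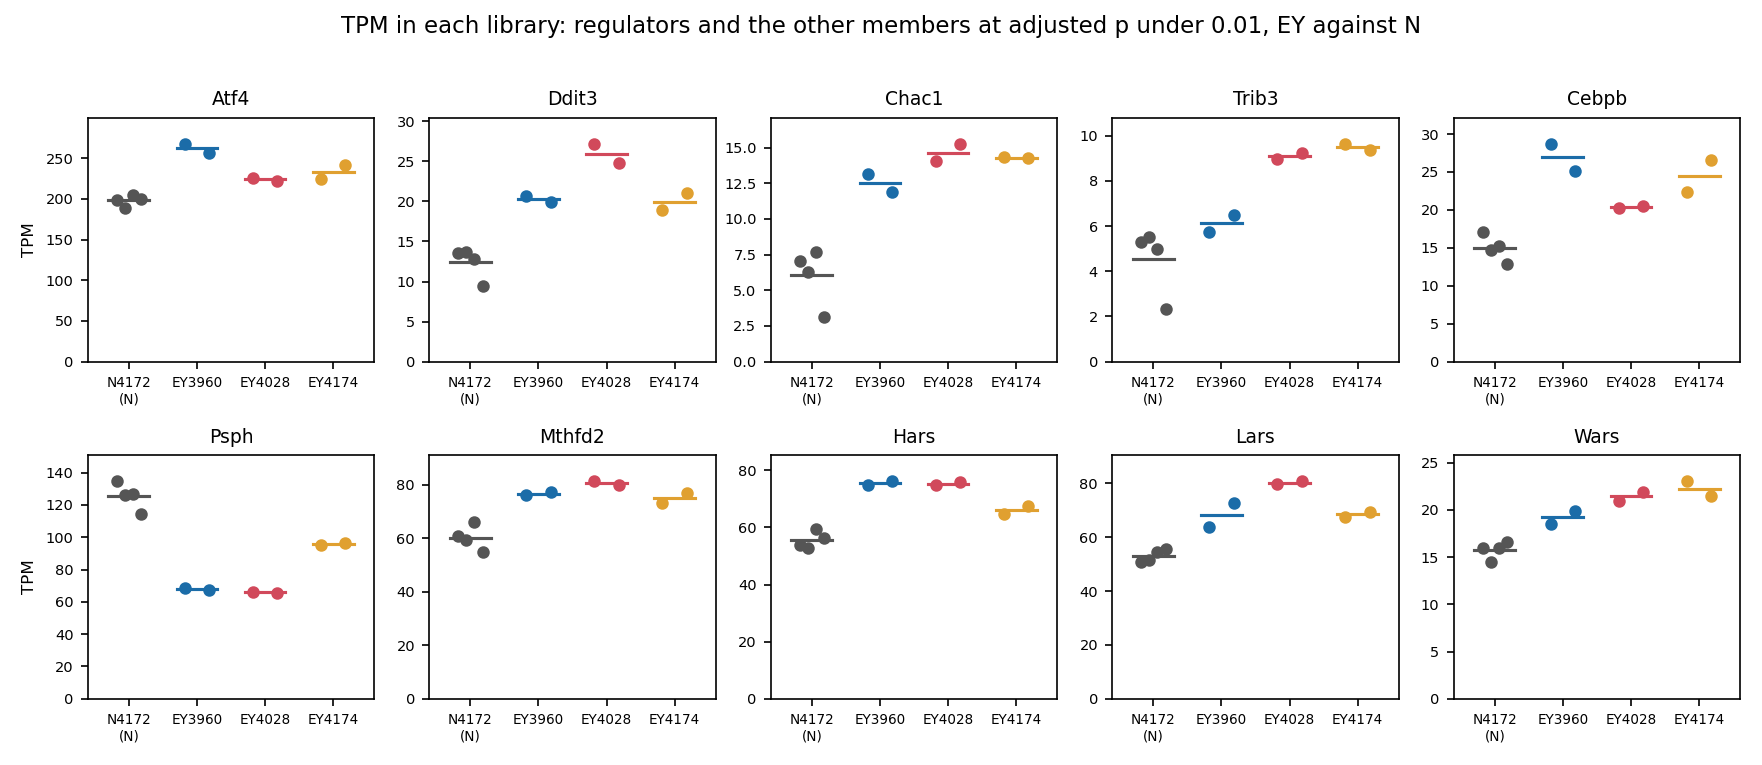
TPM (vertical axis, from 0) in each library of N4172 and the 3 EY lines (horizontal axis) for the 5 regulators and the 5 other members at an adjusted p under 0.01. Points are libraries and bars line means. Psph is lower in every EY library than in every N library, and the other 9 genes are higher.

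No transporter passed in EY against N by limma, and 1 was at an unadjusted p under 0.05. Slc7a5 and Slc3a2 encode the light and heavy chains of the leucine importer LAT1, yet they were placed differently. Slc7a5 was at 13.1 and 14.5 TPM in EY3960, 23.7 and 24.5 TPM in EY4028, 30.4 and 25.3 TPM in EY4174, and 17.0, 13.4, 14.1 and 13.2 TPM in N. EY3960 overlapped N, whereas EY4028 and EY4174 lay above it. Slc3a2, which also serves other light chains, was at 66.1 and 66.8 TPM in EY3960, 82.9 and 89.7 TPM in EY4028, 95.1 and 86.4 TPM in EY4174, and 101, 80.1, 103 and 103 TPM in N. Here EY3960 was below every N library. The libraries of the other lines lay above the second N library and below all other N libraries. Over all lines the log2 fold change was 0.52 ± 0.21 (SE, adjusted p = 0.0963 by limma) for Slc7a5 and -0.26 ± 0.12 (SE, adjusted p = 0.140 by limma) for Slc3a2.

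Slc1a5, the glutamine importer, ranged from 18.2 to 32.2 TPM in EY and from 18 to 21.7 TPM in N, and the log2 fold change was 0.30 ± 0.14 (SE, adjusted p = 0.146 by limma). Slc7a1, an importer of cationic amino acids, ranged from 9.76 to 21.6 TPM in EY and from 13.4 to 18.6 TPM in N, and the log2 fold change was 0.06 ± 0.19 (SE, adjusted p = 0.845 by limma).

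The synthetases differed in level by more than 10-fold, from Fars2, the mitochondrial phenylalanyl-tRNA synthetase, at 8.55 to 13.7 TPM over all libraries, to Nars, for asparagine, at 220 to 285 TPM. Of the 18 measured, 3 rose (background 6.84%) and none fell (background 5%). Lars, for leucine and also a leucine sensor of mTORC1, was at 64.0 and 72.9 TPM in EY3960, 79.8 and 80.8 TPM in EY4028, 67.6 and 69.5 TPM in EY4174, and 51.0, 51.4, 54.7 and 55.6 TPM in N. All EY libraries were above N and EY4028 was the highest line, and the log2 fold change was 0.43 ± 0.08 (SE, adjusted p = 0.00246 by limma).

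Hars, for histidine, was at 75.0 and 76.1 TPM in EY3960, 74.8 and 75.8 TPM in EY4028, 64.8 and 67.6 TPM in EY4174, and 54.0, 52.6, 59.6 and 56.4 TPM in N. EY3960 and EY4028 overlapped each other and EY4174 lay between them and N, and the log2 fold change was 0.37 ± 0.07 (SE, adjusted p = 0.00339 by limma). Wars, for tryptophan, was at 18.6 and 19.8 TPM in EY3960, 21.0 and 21.9 TPM in EY4028, 23.0 and 21.4 TPM in EY4174, and 16.0, 14.5, 16.0 and 16.6 TPM in N. The groups did not overlap, and the log2 fold change was 0.39 ± 0.08 (SE, adjusted p = 0.00612 by limma). The adjusted p of Wars reached 0.0273 when single libraries were left out. Without the first N library Hars, Lars, Mthfd2 and Wars no longer passed, which left 4 of the 8 members, and without the second Cebpb was lost as well, which left 3. Fewer genes of any kind were called in these 2 settings, 309 and 295 over all genes against 413 with all libraries. The losses are therefore not particular to the members.

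Yars, for tyrosine, was at 25.0 and 27.2 TPM in EY3960, 32.6 and 36.0 TPM in EY4028, 31.0 and 33.7 TPM in EY4174, and 21.2, 20.9, 25.0 and 23.4 TPM in N. The lowest EY3960 library was level with the highest N library to 3 digits, and the log2 fold change of 0.43 ± 0.11 (SE, adjusted p = 0.0139 by limma) did not pass. Nars was at 231 and 246 TPM in EY3960, 280 and 285 TPM in EY4028, 284 and 281 TPM in EY4174, and 229, 220, 237 and 225 TPM in N. EY3960 overlapped N and both other lines were above it, with a log2 fold change of 0.23 ± 0.08 (SE, adjusted p = 0.0433 by limma).

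Vars, for valine, had the largest log2 fold change of the synthetases, 0.50 ± 0.19 (SE, adjusted p = 0.0739 by limma), with a wide spread between lines. It was at 17.6 and 22.1 TPM in EY3960, 36.9 and 37.8 TPM in EY4028, 31.2 and 31.4 TPM in EY4174, and 20.5, 18.2, 20.8 and 19.9 TPM in N. Aars, for alanine, was at 21.0 and 24.8 TPM in EY3960, 35.7 and 35.5 TPM in EY4028, 34.5 and 34.5 TPM in EY4174, and 26.5, 23.1, 25.2 and 25.2 TPM in N, and the log2 fold change was 0.27 ± 0.15 (SE, adjusted p = 0.205 by limma). In both genes EY3960 overlapped N and the other lines were well above it.

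Kars, for lysine, was at 119 and 131 TPM in EY3960, 161 and 162 TPM in EY4028, 134 and 132 TPM in EY4174, and 126, 120, 132 and 121 TPM in N, and the log2 fold change was 0.15 ± 0.09 (SE, adjusted p = 0.251 by limma). Only EY4028 stood well clear of N. Qars, for glutamine, showed another order, with 168 and 179 TPM in EY3960, 114 and 109 TPM in EY4028, 114 and 93.9 TPM in EY4174, and 103, 99.0, 116 and 120 TPM in N, and the log2 fold change was 0.21 ± 0.17 (SE, adjusted p = 0.413 by limma). Here EY3960 was above every other library and both other lines overlapped N. Iars, for isoleucine, was at 48.2 and 50.3 TPM in EY3960, 61.8 and 59.0 TPM in EY4028, 49.7 and 41.9 TPM in EY4174, and 58.0, 58.9, 65 and 65.8 TPM in N, and the log2 fold change was -0.26 ± 0.10 (SE, adjusted p = 0.0896 by limma). EY3960 and EY4174 were below every N library, and EY4028 overlapped N.

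The other 8 synthetases overlapped between the groups and did not pass in any line. Log2 fold changes were 0.23 for Cars (cysteine), 0.15 for Rars (arginine), 0.10 for Gars (glycine), 0.10 for Tars (threonine) and 0.10 for Dars (aspartate), with limma adjusted p-values from 0.101 to 0.387. They were -0.01 for Sars (serine), -0.02 for Eprs (glutamate and proline) and -0.31 for Fars2, with limma adjusted p-values of 0.916, 0.909 and 0.0812. In Fars2 the second N library, at 8.55 TPM, lay among the EY libraries at 8.77 to 10.3 TPM, while the other N libraries were at 12.2 to 13.7 TPM. The row named Mars was at 33.6 to 55.1 TPM in EY and 32.5 to 34.4 TPM in N, and the log2 fold change was 0.27 ± 0.12 (SE, adjusted p = 0.113 by limma), and was not counted as a member.

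Summed over their 18 genes, the synthetases reached 1542 and 1646 TPM in EY3960, 1730 and 1742 TPM in EY4028, 1669 and 1671 TPM in EY4174, and 1459, 1403, 1551 and 1538 TPM in N. The 4 libraries of EY4028 and EY4174 were above every N library, and the lower EY3960 library lay within the range of N. The regulators summed to 290 to 336 TPM in EY and 228 to 246 TPM in N without overlap, most of which was Atf4. The enzymes summed to 777 to 1039 TPM in EY and 853 to 980 TPM in N, and the transporters to 107 to 179 TPM in EY and 125 to 155 TPM in N. In both of these roles EY3960 lay below every N library, and the ranges of the groups overlapped.

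**Figure D3:**
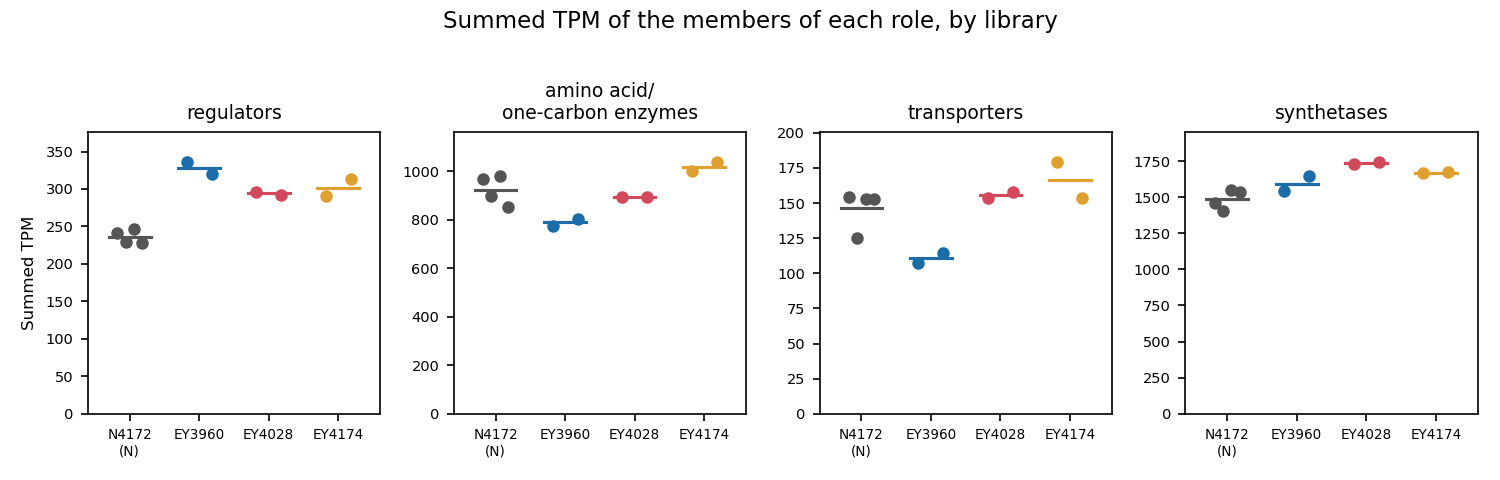
Summed TPM (vertical axis, from 0) of the members of each role in each library of N4172 and the 3 EY lines (horizontal axis). Points are libraries and bars line means. EY3960 is the highest EY line for the regulators, at a mean of 328 TPM, and the lowest for the other 3 roles. The regulator sum is mostly Atf4, and the regulators Chac1 and Trib3 have their lowest EY mean in EY3960.

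The second comparison set each EY line against N. Ddit3 and Lars rose and Psph fell in each of the 3 lines, Chac1 and Slc7a5 rose in EY4028 and EY4174, and Aldh18a1, Asns and Slc3a2 fell in EY3960. Whether a line differed from another in these genes is given by the third comparison. The test used 4 line means, with the spread between libraries of the same line pooled over all 10 libraries. These 3 contrasts share the N libraries and are not independent of each other or of the comparison above. In EY3960, 1 member was called (background 7.04%), Aldh18a1, with a log2 fold change of -1.06 ± 0.19 (SE, adjusted p = 0.00182 by limma). At an adjusted p under 0.01, 7 members were higher (background 9.94%), Atf4, Cebpb, Ddit3, Hars, Lars, Mthfd2 and Qars, and 4 were lower (background 7.06%), Aldh18a1, Asns, Psph and Slc3a2. In this line Atf4 itself passed, with a log2 fold change of 0.40 ± 0.07 (SE, adjusted p = 0.00106 by limma), as did Qars at 0.66 ± 0.10 (SE, adjusted p = 0.000698 by limma). Asns was at -0.45 ± 0.08 (SE, adjusted p = 0.00141 by limma) and Slc3a2 at -0.53 ± 0.11 (SE, adjusted p = 0.00399 by limma).

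In EY4028, 2 members were called (background 5.74%), Chac1 with a log2 fold change of 1.21 ± 0.25 (SE, adjusted p = 0.00504 by limma) and Ddit3 with 1.02 ± 0.14 (SE, adjusted p = 0.000398 by limma). At an adjusted p under 0.01, 12 members (34.3%) were higher (background 10.9%) and 1, Psph, was lower (background 5.83%). Of the 12, 8 were synthetases, Aars, Hars, Kars, Lars, Nars, Vars, Wars and Yars, and the others were Chac1, Ddit3, Mthfd2 and Slc7a5. The largest of the synthetase differences was that of Vars, 0.88 ± 0.10 (SE, adjusted p = 0.000128 by limma), and Slc7a5 was at 0.71 ± 0.12 (SE, adjusted p = 0.00166 by limma).

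In EY4174, 1 member was called (background 4.95%), Chac1, with a log2 fold change of 1.18 ± 0.25 (SE, adjusted p = 0.00616 by limma). At an adjusted p under 0.01, 12 members (34.3%) were higher (background 7.32%) and 2, Iars and Psph, were lower (background 8.26%). Of the 12, 6 were synthetases, Aars, Lars, Nars, Vars, Wars and Yars, and the others were Cebpb, Chac1, Ddit3, Phgdh, Shmt2 and Slc7a5. Slc7a5 had a log2 fold change of 0.90 ± 0.12 (SE, adjusted p = 0.000398 by limma), Phgdh of 0.57 ± 0.08 (SE, adjusted p = 0.000512 by limma) and Shmt2 of 0.42 ± 0.08 (SE, adjusted p = 0.00380 by limma).

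Without the fourth N library, in which Chac1 and Ddit3 were lowest and Aldh18a1 highest, 0 members were called in any line. The median log2 fold change of the 35 members was 0.03 in EY3960, 0.21 in EY4028 and 0.25 in EY4174, beside 0.01, 0.09 and -0.01 over all genes tested. For the transporters it was -0.24, 0.35 and 0.41, for the enzymes -0.39, 0.06 and 0.09, for the synthetases 0.06, 0.20 and 0.18, and for the regulators 0.68, 0.92 and 0.68.

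The third comparison was between the EY lines, which do not differ in their labelled genotype. By the F test of limma, 7 members passed an adjusted p under 0.01 (background 8.55%), Aars, Phgdh, Psph, Qars, Shmt2, Slc7a5 and Vars. None of the 35 also differed by more than 1 on the log2 scale between a pair of lines (background 5.12%). At an unadjusted p under 0.05 there were 20, for which no share over all genes is given. The largest distance between line means was that of Slc7a5, 0.96 on the log2 scale (limma adjusted p = 0.00188), followed by Aldh18a1 at 0.92 (limma adjusted p = 0.0317) and Vars at 0.89 (limma adjusted p = 0.00116). Shmt2 spanned 0.74 (limma adjusted p = 0.00102), Qars 0.74 (limma adjusted p = 0.00278) and Aars 0.62 (limma adjusted p = 0.00368). Phgdh and Psph each spanned 0.53, with limma adjusted p-values of 0.00726 and 0.00297. None of the regulators passed, and the smallest distance of all was that of Tars, 0.01.

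The same line was the lowest in many members, while the order of the other lines varied. EY3960 had the lowest mean of the EY lines in 25 of the 35 members (71.4%), against 37.9% of all genes tested, including all 4 transporters, 6 of the 8 enzymes and 13 of the 18 synthetases. EY4028 was the lowest in 4 (background 16.5%), Atf4, Cebpb, Psph and Tars. EY4174 was the lowest in 6 (background 45.6%), Dars, Ddit3, Hars, Iars, Mthfd2 and Qars. This count was made after the values had been seen, carries no test, and each line is 2 libraries. Atf4 and Cebpb had their highest mean in EY3960, the EY line in which the means of Asns, Slc7a5, Phgdh and Shmt2 were lowest. The other regulators had another order, with Chac1 and Trib3 lowest in EY3960 and Ddit3 highest in EY4028. Atf4, Cebpb and Asns did not pass between the lines, with limma adjusted p-values of 0.112, 0.159 and 0.0890. Mitochondrially encoded transcripts made up 15.2% and 15.2% of the TPM in EY3960, 19.0% and 19.9% in EY4028, and 19.6% and 14.1% in EY4174, and their part in the order of the lines was not tested.

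**Figure D4:**
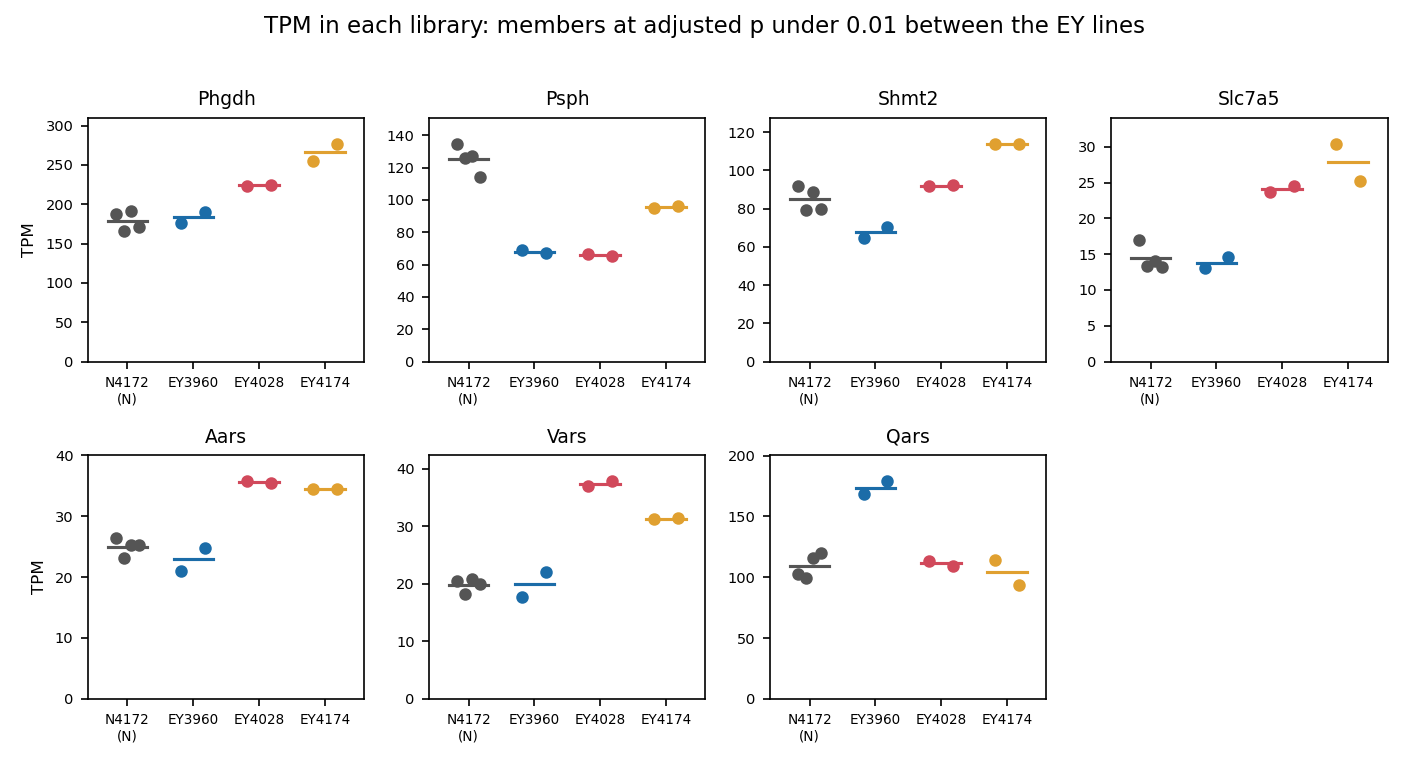
TPM (vertical axis, from 0) in each library of N4172 and the 3 EY lines (horizontal axis) for the 7 members at an adjusted p under 0.01 between the EY lines. Points are libraries and bars line means. EY3960 is lowest of the EY lines in Phgdh, Shmt2, Slc7a5, Aars and Vars and highest in Qars, and EY4174 is highest in Psph.

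Other genes of the pathway were read from lists of related function, some of which share genes. Over all genes tested, 11.8% passed an adjusted p under 0.01, 6.84% higher and 5% lower in EY. A count near that share is no result about a list. Of 23 tested among 28 other ATF4 targets, 4 rose and 4 fell at an adjusted p under 0.01, with a median log2 fold change of -0.02. Those that rose were Atf3, Got1, Jdp2 and Stc2, and those that fell were Aldh1l2, Gpt2, Slc7a11 and Vldlr. Without the fourth N library Jdp2 and Gpt2 no longer passed. Atf3, a stress-induced transcription factor, had a log2 fold change of 1.64 ± 0.22 (SE, adjusted p = 0.000324 by limma), with 14.3 to 19.6 TPM in EY and 3.52 to 9.71 TPM in N, where the fourth library was the highest. Vldlr, a lipoprotein receptor, had one of -1.70 ± 0.19 (SE, adjusted p = 9.65e-05 by limma), and Aldh1l2, a mitochondrial folate enzyme, one of -1.27 ± 0.17 (SE, adjusted p = 0.000294 by limma).

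Upstream of ATF4, 1 of 16 genes of the eIF2 kinases, eIF2, its exchange factor and its phosphatase passed (background 11.8%). This was Impact, an inhibitor of GCN2 activation, which was at 19.7 to 23.7 TPM in N and fell in EY, to a range of 6.15 to 12.6 TPM, with a log2 fold change of -1.17 ± 0.18 (SE, adjusted p = 0.000830 by limma). Of 17 tested genes of the unfolded protein response of the endoplasmic reticulum, such as chaperones, 0 passed by limma and 2 were at an unadjusted p under 0.05, with a median log2 fold change of 0.15. This count rested on the fourth N library. Without it 8 of the 17 rose, Atf6, Calr, Creld2, Hsp90b1, Hspa5, Manf, Sdf2l1 and Xbp1, with 0 lower and a median of 0.42, against 12.2% of all genes passing in either direction. That library was set aside for its values in these same genes. The count and p-values without it are therefore a description and not a test. Hspa5, the chaperone BiP, named here after its values were seen, was at 317 to 427 TPM in EY, at 160, 158 and 168 TPM in the first 3 N libraries and at 728 TPM in the fourth. Its log2 fold change was 0.62 with that library and 1.16 without it (adjusted p = 6.56e-05 by limma). In the same library Chac1, Ddit3 and Trib3 were the lowest of all, and the part of this library's state in the members' differences was not tested.

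Of 16 mitochondrial synthetases 0 passed and 2 were at an unadjusted p under 0.05, and of 5 other cytosolic synthetase subunits and partners 0 passed and 2 were, with medians of 0.06 and 0.11.

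In serine, glycine and one-carbon metabolism 1 of 11 tested genes passed (background 11.8%), Aldh1l2. In proline, glutamine and aspartate metabolism Aldh4a1, Got1, Got2 and Pycrl rose, of which Pycrl no longer passed without the fourth N library. Aldh4a1, the second enzyme of proline breakdown to glutamate, had a log2 fold change of 1.01 ± 0.16 (SE, adjusted p = 0.000903 by limma). Glul, the glutamine synthetase, did not pass against N but differed between the EY lines by 1.27 on the log2 scale (limma adjusted p = 4.7e-05).

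Of 15 other amino acid transporters tested, 1 rose (background 6.84%), Slc1a4, and 4 fell (background 5%), Slc1a3, Slc36a4, Slc7a8 and Slc7a11. Without the fourth N library Slc1a4 no longer passed and Slc1a3 was not tested, being at 1 TPM in too few libraries. Slc7a8, a light chain that like Slc7a5 pairs with Slc3a2, was at 1.33 to 1.72 TPM in EY and 4.24 to 5.17 TPM in N, and the log2 fold change was -1.22 ± 0.11 (SE, adjusted p = 1.77e-05 by limma). Slc36a4 had one of -1.40 ± 0.14 (SE, adjusted p = 5.07e-05 by limma) and Slc1a3, a glutamate importer, one of -1.44 ± 0.16 (SE, adjusted p = 0.000101 by limma). Of 22 genes of amino acid sensing upstream of mTORC1, Lars and Rragc rose (background 6.84%) and Sesn1 fell (background 5%). Rragc no longer passed without the fourth N library. Sesn1, a leucine-binding inhibitor of that pathway and a target of p53, had a log2 fold change of -1.11 ± 0.17 (SE, adjusted p = 0.000843 by limma).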

How the data were processed

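RNA-seq was performed on 10 primary culture libraries, 6 EY from 3 lines and 4 N from 1 line. The authors deposited a table of TPM values, normalised for transcript length and library total. Per the submitters' processing notes and the methods, reads were processed with STAR 2.7.9, SAMtools 1.7, HTSeq 0.13.5 and DESeq2 1.34.0 on GRCm39, and TPM for enrichment analysis were made with Kallisto against a human transcriptome, keeping the highest transcript of a gene. Which step made the table is not given in the sources used here, so its transcript reference and depth are unknown, and no counting interval or floor could be given. TPM are shares, so that a rise of abundant transcripts lowers the others. A spreadsheet had turned 20 symbols into dates, and 2 symbols named more than 1 row, none of them members.

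Values were transformed to log2(TPM + 1) and filtered at 1 TPM in 4 libraries. limma 3.58.1 (R 4.3.3; trend and robust options, 2-sided) was fitted to all genes, for EY against N without covariates and for 4 line means, with Benjamini-Hochberg adjustment. The study's thresholds were kept. Pseudocounts, filters, scalings, line blocks and left-out lines and libraries were tried as alternatives. Summaries used Python 3.11.15. The members and lists were chosen with earlier results of these data known. Every member present is named, with all libraries given for regulators and for members at an adjusted p under 0.01 in a comparison. Of each other list, up to 3 called genes with the smallest adjusted p have values. 1 item of these lists is not reported here. Scripts were tested on simulated data.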

Additional observations from a re-analysis of the deposited data

Results flagged for a closer look

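In 4 of 70 groups of values examined (35 members in 2 groups), the highest or lowest library stood apart by Dixon's criterion, where chance gives about 1 in 20, or 3.5. The fourth N library had the lowest Trib3, 2.34 TPM against 4.98 to 5.50 TPM in the other N libraries, and the highest Aldh18a1, 24.1 TPM against 16.5 to 17.4 TPM. The second N library had the lowest Slc3a2, 80.1 TPM against 101 to 103 TPM. The second library of EY4174 had the highest Fars2 of the EY group, 10.3 TPM against 8.77 to 9.34 TPM.

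In 7 members the difference from N varied between the EY lines by the limma F test. The distance between the highest and lowest line mean on the log2 scale was 0.96 for Slc7a5, 0.89 for Vars, 0.74 for Shmt2, 0.74 for Qars, 0.62 for Aars, 0.53 for Phgdh and 0.53 for Psph, with limma adjusted p-values of 0.00102 to 0.00726. EY3960 was the lowest EY line in Slc7a5, Vars, Shmt2, Aars and Phgdh.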

How the results depend on the processing

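Of 840 values (35 members under 24 alternatives), 763 kept direction and side of an adjusted p under 0.01. At that limit 44 no longer passed and 10 newly passed, and 23 reversed in direction. The 8 members passing in EY against N became 0 with line as a random block, 0 with line means, 1 with sample numbers taken as a replicate block, 14 without EY3960 and 3 without EY4028, and 3 to 10 when single libraries were left out. Over all genes, 413 were called with all libraries and 295 to 444 with single libraries left out. The 1 called became 0 with a pseudocount of 5, either line setting or the block, and 0 to 1 with libraries left out. Deviations of same-numbered libraries from their line means correlated at -0.148 to 0.102. With 2 libraries in each EY line these deviations mirror each other, so whether the numbers pair libraries cannot be told. Called members of EY3960, EY4028 and EY4174 became 0 each with a pseudocount of 5. EY4174 had 0 with no filter and EY4028 had 1 with quantile normalization. With libraries left out the counts were 0 to 1 for EY3960, 0 to 2 for EY4028, 0 to 1 for EY4174 and 0 to 1 between EY lines. Between EY lines, 1 was called with a pseudocount of 0.1, median-ratio scaling or quantile normalization.

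The reversals were all in members that did not pass, and their cause was not tested. Psat1 had -0.0240 with median-ratio scaling, -0.0640 with quantile normalization, -0.0181 without mitochondrially encoded transcripts, -0.0195 with the replicate block, -0.0373 without EY4174 and -0.0458 to 0.0464 with libraries left out. Shmt2 had -0.103 without EY4174 and Pycr1 0.106 without EY3960. Slc7a1 had -0.0538 without EY4028, -0.0638 without EY4174 and -0.0229 to 0.191 with libraries left out. Eprs had 0.0332 with the block, 0.0894 without EY3960 and -0.0626 to 0.0515 with libraries left out. Sars had 0.0866 with the block, 0.0223 without EY3960, 0.00495 without EY4028 and -0.0676 to 0.0440 with libraries left out. Qars had -0.0218 without EY3960. Depth is unknown, 2 libraries a line set the precision, and 1 N line leaves line and genotype inseparable.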
